A study of Homo sapiens with 7 samples.

Results

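DNA replication and S-phase genes were followed in RH30 cells as a set of 45 genes, picked by name for their known roles in origin licensing, the replisome, nucleotide supply and the G1/S transition. The choice was made with earlier results of these data known. All 45 were among the 57189 genes of the count table, and all 45 passed the filter on low counts, which left 23124 genes for testing. RH30 cells are a long-used line of alveolar rhabdomyosarcoma, a childhood soft-tissue tumour, and BV6 is a bivalent Smac mimetic, a small molecule that brings about the loss of inhibitor of apoptosis proteins (IAPs). Poly(A) RNA was sequenced from 4 untreated samples of RH30 cells and from 3 samples that had received BV6 at 5 µM over 24 h, all labelled wild type for genotype. The paper's methods state that its RH30 cells expressed GFP and luciferase in all of the work, while the sample titles name RH30 only. BV6 replicates 2, 3 and 4 shared a code in the sample titles with untreated replicates 2, 3 and 4, while untreated replicate 1 had no treated partner. The pairs are called experiments 2, 3 and 4 here, but the labels do not say what the code marks. The paper describes the samples as biological replicates of 1 cell line, but no source used here says how the cultures were kept apart, so p-values measure the spread between these samples.

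Before S phase, the origin recognition complex, CDC6 and CDT1 load rings of MCM proteins onto origins. In S phase the rings become active helicases with CDC45 and the GINS proteins, PCNA clamps hold the polymerases on DNA, and ribonucleotide reductase and thymidylate synthase supply deoxynucleotides. Many of the genes are transcribed in bursts at the G1/S border by E2F factors, so that their RNA is commonly read as a mark of proliferating cells. RNA of a mixed culture cannot tell fewer cells in S phase from less RNA per cell.

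The promoters of the genes were searched for the core E2F word, because E2F factors are the common regulators of the set. Promoter windows of RefSeq (GRCh38.p14), which run from 250 bases before to 50 bases after a start, were found for 39 of the 45 genes, and these 39 had 50 windows. The words TTTCCCGC, TTTCGCGC, TTTGCCGC and TTTGGCGC were searched on both strands. At least 1 of them was found in 22 of the 50 windows (44%), against 3.31% of all 35116 windows. By gene, 21 of the 39 (53.8%) had a match, against 6.13% of the 12208 tested genes with a window. The 29 matches began between position -187 and position 7 relative to the start, with a median of -35. The word CCAAT, bound by the factor NF-Y, was found on either strand in 28 of the 50 windows (56%), against 34.6% of all windows. By gene it was 22 of the 39 (56.4%), against 42.7% of the tested genes with a window. Both words were found in 12 genes, a count with no share over all genes beside it. The windows below run from 100 bases before to 20 bases after the start, 5′ to 3′ on the strand of the gene, with matches to the E2F words in capitals. The first 6 belong to the genes with a window that had an unadjusted p below 0.05 for BV6, and CDC6 and MCM7 are shown as licensing genes whose levels differed little. UHRF1 and MCM7 had 3 listed windows each, and the one shown is the first.
E2F1 (chr20:33686366-33686485, minus strand): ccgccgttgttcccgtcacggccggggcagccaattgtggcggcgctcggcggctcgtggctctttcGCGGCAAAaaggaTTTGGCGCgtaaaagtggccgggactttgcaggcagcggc
E2F2 (chr1:23531214-23531333, minus strand): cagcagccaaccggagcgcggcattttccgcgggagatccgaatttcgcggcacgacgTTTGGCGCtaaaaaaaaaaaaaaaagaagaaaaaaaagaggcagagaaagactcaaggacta
CCNE1 (chr19:29811891-29812010, plus strand): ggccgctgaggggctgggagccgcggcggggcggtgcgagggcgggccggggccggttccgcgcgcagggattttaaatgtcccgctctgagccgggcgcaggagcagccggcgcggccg
UHRF1 (chr19:4909401-4909520, plus strand): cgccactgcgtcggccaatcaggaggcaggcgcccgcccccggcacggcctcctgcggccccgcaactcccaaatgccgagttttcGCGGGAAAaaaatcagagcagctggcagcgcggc
GINS2 (chr16:85688935-85689054, minus strand): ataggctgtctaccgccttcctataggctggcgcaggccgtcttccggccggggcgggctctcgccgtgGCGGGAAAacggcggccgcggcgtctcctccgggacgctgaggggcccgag
POLA2 (chr11:65261862-65261981, plus strand): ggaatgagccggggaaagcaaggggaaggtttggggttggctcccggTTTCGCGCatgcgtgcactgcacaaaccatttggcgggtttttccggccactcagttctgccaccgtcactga
CDC6 (chr17:40287779-40287898, plus strand): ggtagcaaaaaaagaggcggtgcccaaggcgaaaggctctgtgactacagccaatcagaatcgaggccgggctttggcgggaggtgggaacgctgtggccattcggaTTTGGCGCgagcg
MCM7 (chr7:100101378-100101497, minus strand): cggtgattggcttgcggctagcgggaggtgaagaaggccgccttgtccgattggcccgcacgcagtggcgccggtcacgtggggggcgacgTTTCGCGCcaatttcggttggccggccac
Within the stretches shown, E2F1 carried a pair of matches, CCNE1 carried none in these letters, and the other 6 carried 1 each. In the full windows searched, UHRF1 had a further match at -160 and MCM7 at -187. The median log2 fold change for BV6 was -0.13 for the 21 genes with a match and -0.12 for the 18 without one, so the medians of genes with and without the word were nearly equal.

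Totals of the libraries lay between 54070030 and 77220882 counts, and the members had between 723 and 44637 counts in any 1 sample, so counting error was small beside the spread between samples. Levels are given as CPM, counts scaled to a common library size normalised by TMM. A count of 3, taken as the floor, corresponded to 0.0389 to 0.0557 CPM. MYOD1 and DES, muscle genes typical of rhabdomyosarcoma, lay at 157 to 474 CPM and 451 to 865 CPM over the 7 samples. Of the leukocyte markers 7 passed the filter, which CD79A and TYROBP did not. PTPRC stayed at or below 0.801 CPM and CD3E at or below 0.315 CPM, whereas NKG7 was at 5.29 to 11.1 CPM and NCAM1, also known from muscle tumours, at 267 to 484 CPM. The summed level of these markers was 354 to 495 CPM in untreated and 274 to 401 CPM in BV6 samples. BV6 replicate 3 and untreated replicate 1 stood apart in the relation of counts to GC content. A smooth curve over all genes put genes with 60% GC at -0.49 (log2, relative to the mean of the 7 samples) in BV6 replicate 3 and at 0.31 in untreated replicate 1, and between -0.037 and 0.14 in the other 5 samples.

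In untreated cells the 45 genes spanned a wide range of levels per length of exon. MCM7, a subunit of the MCM helicase ring, was highest at 112 ± 12.98 CPM per kb of exon (SD, n = 4), and GINS3, a subunit of the GINS complex, was lowest at 4.86 ± 1.15 CPM per kb. PCNA, the sliding clamp, came next to MCM7 at 106 ± 16.0 CPM per kb, which lay within the spread of MCM7. MCM3 (80.0 ± 7.66 CPM per kb) and UHRF1 (79.9 ± 20.5 CPM per kb) followed, and their spreads overlapped. At the low end, POLA2 (4.93 ± 0.365 CPM per kb) and CHAF1B (5.26 ± 0.433 CPM per kb) lay within the spread of GINS3. The exon length is the union of all annotated isoforms. CDT1 and POLD1 had the widest ranges relative to their level among untreated samples, at 23.5 to 54.9 CPM and 62.2 to 140.1 CPM. The members together made up 0.469% to 0.610% of the normalised counts of the untreated samples.

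**Figure D1:**
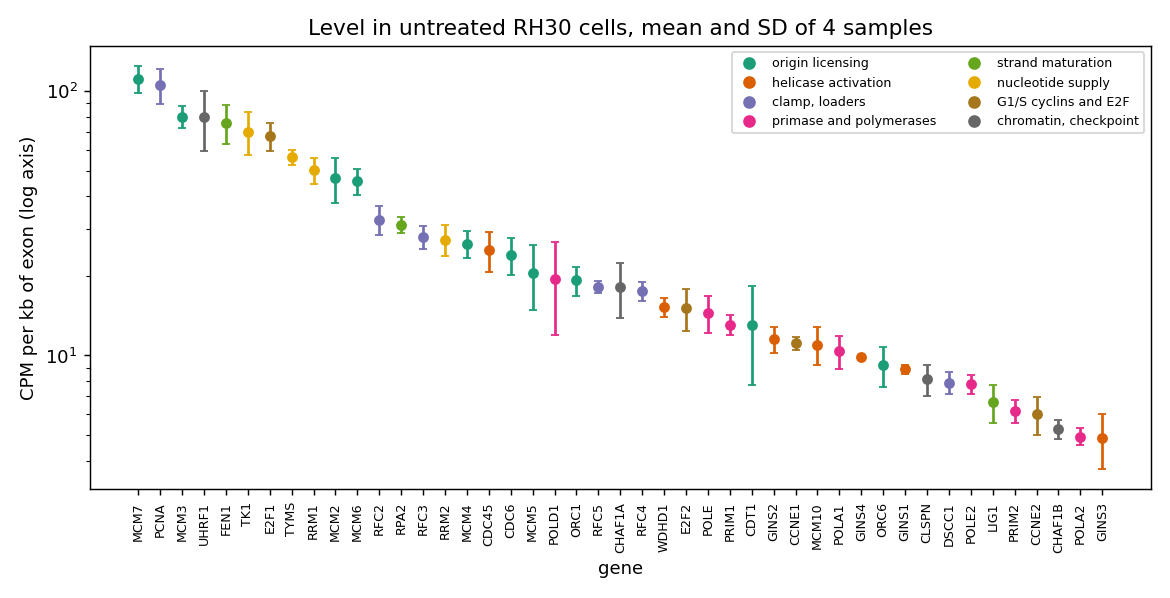
Level of each of the 45 genes in untreated RH30 cells as CPM per kb of exon on a log axis, ordered from high to low, with points for the mean and bars for the SD of 4 samples, and colours for the role of the gene. MCM7 and PCNA sit at the top above 100 CPM per kb and GINS3 and POLA2 at the bottom below 5 CPM per kb.

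No single member passed the test for BV6 in edgeR's quasi-likelihood fit with the condition alone, in which 104 of 23124 genes (0.45%) had an adjusted p below 0.05, 13 lower (0.0562%) and 91 higher (0.394%). With the experiment as a block, again 0 of the 45 genes passed, against 0.294% of all genes that were lower and 0.649% that were higher. The Wald test of DESeq2 called 0 members too, against 0.375% lower and 0.564% higher of the 43421 genes to which it gave a p-value. These include genes below the filter on low counts, so the shares have another base than those above. The smallest adjusted p of a member was 0.31 with the condition alone and 0.16 with the block. At an unadjusted p below 0.05, 7 of the 45 genes (15.6%) were lower in BV6-treated cells and 0 were higher, where 4.26% of all genes were lower and 4.13% higher at that level. The block gave 9 of 45 (20%) against 6.43% of all genes. The 7 were GINS2, GINS4, POLA2, CCNE1, E2F1, E2F2 and UHRF1, and the block added CDC45 and RRM2. With the condition alone, the 7 became 2 without untreated replicate 1, BV6 replicate 3 or BV6 replicate 4, where 2.66%, 3.27% and 6.42% of all genes were lower at that level. They became 3 without untreated replicate 2 (4.48% of all genes), 4 without untreated replicate 3 (3.06%) and 11 without BV6 replicate 2 (3.78%).

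The members leaned to one side by a small amount. Their log2 fold changes ran from -0.63 to 0.039 with a median of -0.13, against -0.014 for all tested genes, and 40 of 45 were below 0 where 52.3% of all genes were. With the block all 45 were below 0 (54.1% of all genes) with a median of -0.14. For 30 of the 45 genes the fold change was smaller than the SD of log2 CPM among the 4 untreated samples. The 95% intervals of 42 genes lay between -1 and 1 on the log2 scale, and the other 3, CDT1, POLD1 and UHRF1, reached below -1. The size of this lean depended on single libraries. Without BV6 replicate 4 the median was -0.040 with 26 genes below 0, without untreated replicate 2 it was -0.050 with 30 genes below 0, and without BV6 replicate 2 it was -0.23 with 44 genes below 0. Markers of muscle and rhabdomyosarcoma leaned the same way, with a median of -0.27 (-0.29 with the block), 7 of 9 tested genes below 0 and 0 called in either fit. Their summed level was 2101 to 2999.7 CPM in untreated and 1292 to 2354 CPM in BV6 samples, and their part in the lean of the members was not tested.

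**Figure D2:**
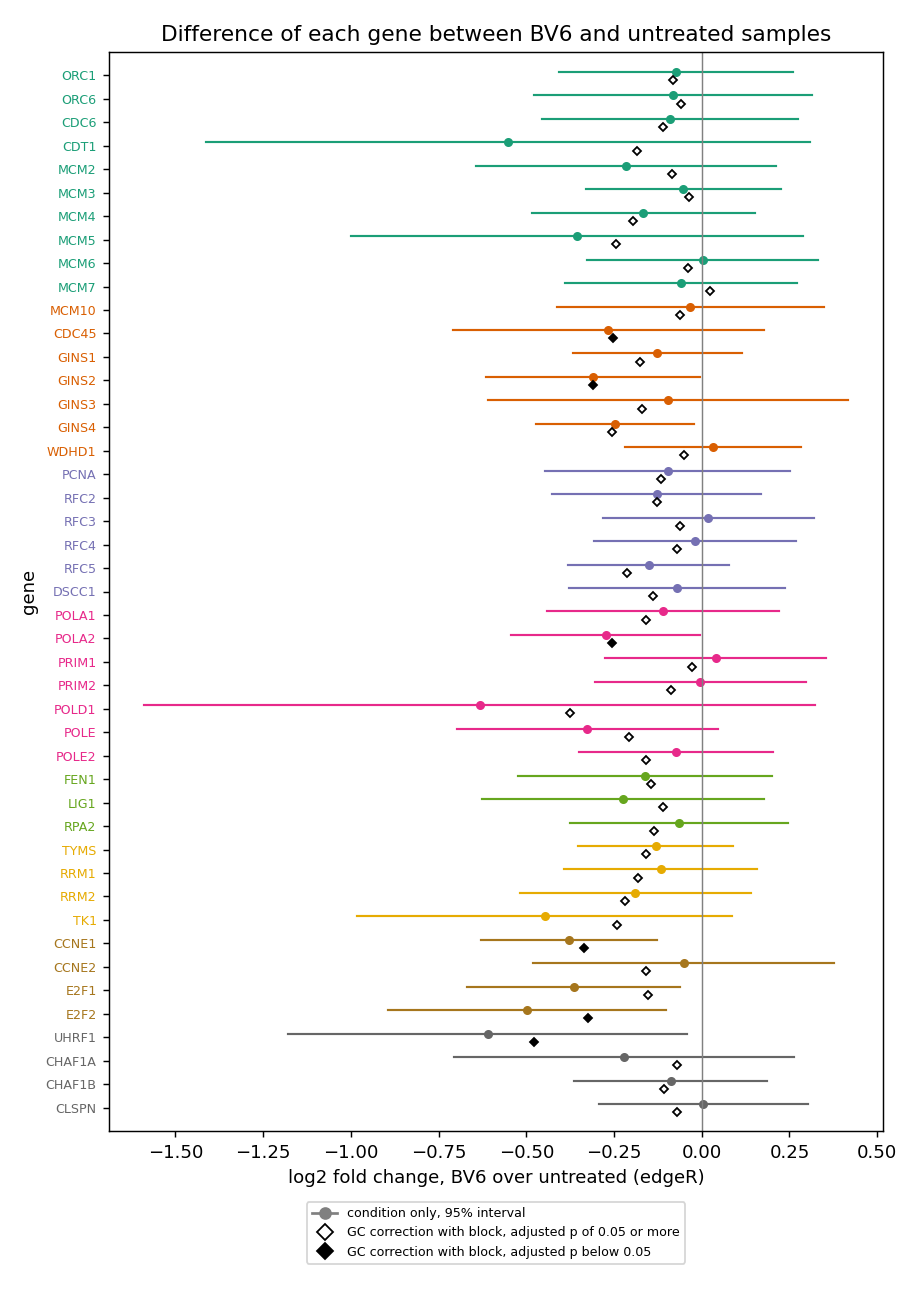
Log2 fold change of BV6 over untreated for each of the 45 genes, with circles and 95% intervals from the fit with the condition alone and diamonds from the fit with GC correction and the experiment as a block (filled where the adjusted p was below 0.05). Most circles lie between -0.3 and 0, most intervals cross 0, and the 6 filled diamonds are CDC45, GINS2, POLA2, CCNE1, E2F2 and UHRF1.

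The levels of the members also differed between samples of the same condition. Relative to the untreated mean, the median member stood at 0.0057, 0.20, -0.073 and -0.15 (log2) in untreated replicates 1 to 4, and at 0.10, -0.15 and -0.31 in BV6 replicates 2 to 4. Experiment 2 was thus high in both conditions. Among untreated samples 31 of the 45 genes were highest in replicate 2, and among BV6 samples 38 were highest in replicate 2. BV6 replicate 2 exceeded both untreated replicates 3 and 4 in 32 of the 45 genes. The summed level of the members was 5625, 6098, 4884 and 4686 CPM in untreated replicates 1 to 4 and 5543, 4271 and 4205 CPM in BV6 replicates 2 to 4. The groups overlapped, and within each experiment the sum was lower with BV6. The difference was -9.11% in experiment 2, -12.5% in experiment 3 and -10.3% in experiment 4.

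Within each experiment most of the genes were lower with BV6. This held for 40 genes in experiment 2, for 33 in experiment 3 and for 39 in experiment 4. The median log2 ratio was -0.14, -0.087 and -0.19 in that order, against -0.00055, -0.051 and 0.0017 for all tested genes. In all 3 experiments 25 of the 45 genes (55.6%) were lower with BV6, against 17.8% of all tested genes, and 0 were higher in all 3. Without experiment 3, whose BV6 sample stood apart in GC content, 34 genes were lower in both remaining pairs (27.5% of all genes). It was 27 (26.4%) without experiment 2 and 31 (34.9%) without experiment 4. Every BV6 sample lay below every untreated sample for 3 of the 45 genes (6.67%), CCNE1, E2F1 and GINS4, against 3.89% of all genes, and no member lay above. Without BV6 replicate 2 this count was 18 (7.82% of all genes). It was 6 (5.32%) without untreated replicate 1, 7 (6.59%) without untreated replicate 4 and 4 (6.87%) without BV6 replicate 3. It remained 3 without untreated replicate 2 (6.83%), without untreated replicate 3 (5.03%) and without BV6 replicate 4 (9.87%), and in the last case 1 member lay above. The counts of members above, and of members higher in all 3 experiments, have no share over all genes beside them.

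**Figure D3:**
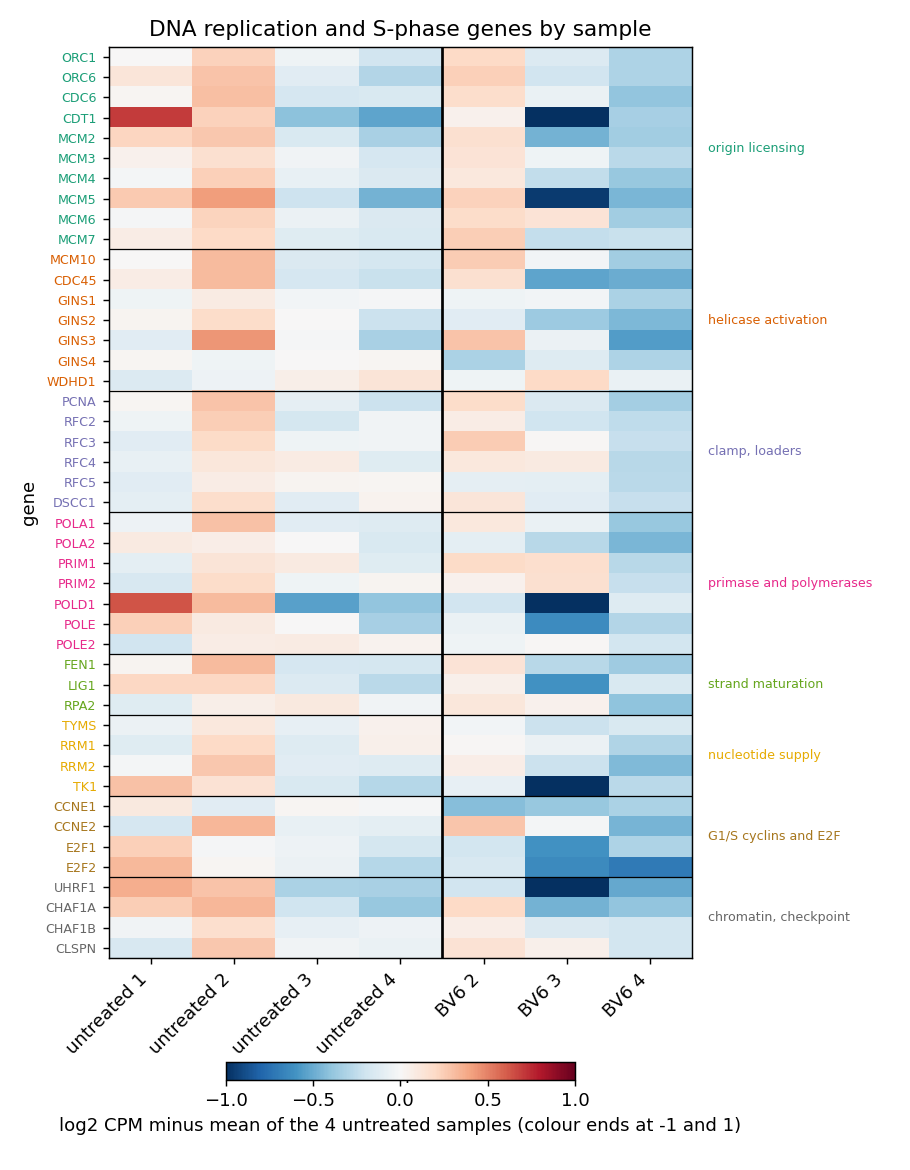
Log2 CPM of each of the 45 genes (rows, coloured and grouped by role) in each of the 7 samples (columns), as the difference from the mean of the 4 untreated samples, red for higher and blue for lower. Untreated replicate 2 and BV6 replicate 2 are mostly red, BV6 replicate 4 is blue in every row, and the darkest cells of BV6 replicate 3 are CDT1, MCM5, POLD1, TK1 and UHRF1.

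The G1/S cyclins and E2F factors had the lowest median of the 8 roles, at -0.37 over 4 genes, none of which passed with the condition alone. CCNE1 (chr19:29811991-29824312 in GENCODE 44), which encodes cyclin E1, the partner of CDK2 at the entry into S phase, had the smallest p of all 45 genes. It was at 29.3, 25.3, 27.8 and 27.1 CPM in untreated replicates 1 to 4 and at 20.3, 21.0 and 21.9 CPM in BV6 replicates 2 to 4. The groups did not overlap, and the BV6 samples lay close together. The log2 fold change was -0.38 ± 0.11 (SE; unadjusted p = 0.0074, adjusted p = 0.31), with a 95% interval of -0.63 to -0.13. Leaving out each sample in turn kept it between -0.42 and -0.34. CCNE2, the gene of the second cyclin E, was at 23.3, 32.8, 24.8 and 24.4 CPM in untreated and 31.5, 25.7 and 18.9 CPM in BV6 samples, so the groups overlapped, with a log2 fold change of -0.051. Exons of CCNE2 share 37.0% of their bases with INTS8 on the opposite strand, and how the counting treated such reads is not given in the sources used here.

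E2F1 (chr20:33675477-33686385), an activator of S-phase genes, was at 213, 179, 175 and 160.2 CPM in untreated and at 159, 119 and 146 CPM in BV6 samples. The highest BV6 sample lay just below the lowest untreated sample. Its log2 fold change was -0.36 ± 0.14 (SE; unadjusted p = 0.023, adjusted p = 0.5). E2F2 (chr1:23506438-23531233), a second activator, was at 102, 82.9, 78.3 and 66.9 CPM in untreated and 72.9, 52.5 and 50.1 CPM in BV6 samples. BV6 replicate 2 lay above untreated replicate 4, and the other BV6 samples lay below all untreated samples. With 1 sample left out, the log2 fold change of E2F1 ran from -0.45 to -0.25. The log2 fold change of E2F2 was -0.50 ± 0.18 (SE; unadjusted p = 0.019, adjusted p = 0.46) (-0.68 to -0.38 with 1 sample left out), and its log2 ratios within experiments 2, 3 and 4 were -0.19, -0.58 and -0.42.

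UHRF1 (chr19:4903080-4962154), which recruits the maintenance DNA methyltransferase to replicating DNA, had the second lowest fold change of the set. It was at 515, 488, 321 and 319 CPM in untreated and at 351, 176 and 280.4 CPM in BV6 samples. The untreated samples fell into a higher pair, replicates 1 and 2, and a lower pair, and BV6 replicate 2 lay between them. The log2 fold change was -0.61 ± 0.25 (SE; unadjusted p = 0.038, adjusted p = 0.56) with an interval of -1.18 to -0.042 and a range of -0.84 to -0.38 with 1 sample left out, and all 3 experiments showed a lower level with BV6, with log2 ratios of -0.48, -0.87 and -0.19. CHAF1A and CHAF1B, subunits of the CAF-1 complex that deposits histones behind the fork, had log2 fold changes of -0.22 and -0.088. CLSPN, the gene of the fork checkpoint adaptor claspin, averaged 78.0 ± 10.5 CPM (SD, n = 4) without BV6 and 78.2 ± 8.92 CPM (SD, n = 3) with it, with a log2 fold change of 0.0044.

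**Figure D4:**
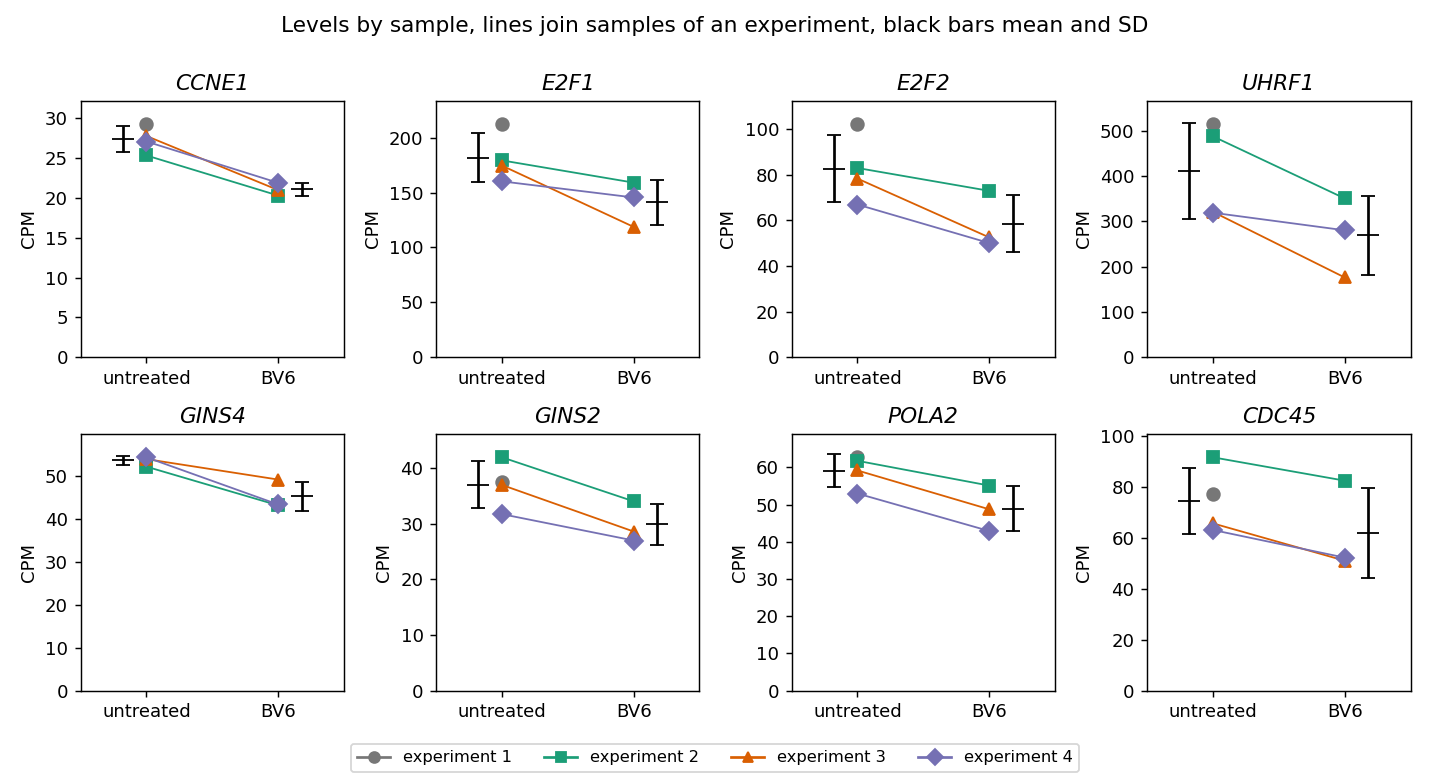
CPM of 8 genes in untreated and BV6 samples, with a symbol and colour for each experiment, lines joining the samples of an experiment, and black bars for the mean and SD (n = 4 untreated, n = 3 BV6). Every joined line goes down in these 8 genes, chosen for small p-values, and the groups are separate only for CCNE1, E2F1 and GINS4.

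The genes of helicase activation had a median of -0.13, and 6 of 7 were below 0. GINS2 was at 37.6, 41.9, 37.0 and 31.7 CPM in untreated and at 34.0, 28.6 and 27.0 CPM in BV6 samples, and only BV6 replicate 2 reached above an untreated sample. Its log2 fold change was -0.31 ± 0.14 (SE; unadjusted p = 0.046, adjusted p = 0.59). GINS4 had the tightest untreated values of the role, at 54.3, 52.2, 53.96 and 54.4 CPM, and BV6 samples were at 43.2, 49.2 and 43.4 CPM. The groups did not overlap, and the log2 fold change was -0.25 ± 0.10 (SE; unadjusted p = 0.034, adjusted p = 0.56). A long non-coding RNA on the opposite strand covers 21.0% of the GINS4 exon bases. CDC45, which joins the MCM ring and GINS in the active helicase, was at 77.5, 91.7, 65.8 and 63.2 CPM in untreated and 82.6, 51.1 and 52.3 CPM in BV6 samples. The CDC45 groups overlapped through BV6 replicate 2, and the log2 ratios within experiments were -0.15, -0.36 and -0.27. GINS1 (-0.13), GINS3 (-0.096) and the origin-firing factor MCM10 (-0.032) differed less. WDHD1, which tethers polymerase alpha to the helicase, was at 88.4, 94.2, 101 and 106 CPM in untreated and 94.6, 112 and 93.0 CPM in BV6 samples, with overlapping groups. Its log2 fold change of 0.032 took the opposite sign, -0.015, with the block.

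The 10 licensing genes had a median of -0.087, and the groups overlapped for each of them. MCM7 was at 579, 633, 506 and 496 CPM in untreated and 654, 466 and 473 CPM in BV6 samples, where BV6 replicate 2 was the highest of all 7 samples. MCM7 had a log2 fold change of -0.060 ± 0.15 (SE; unadjusted p = 0.69, adjusted p = 0.93). MCM6 averaged 189 ± 21.4 CPM (SD, n = 4) without BV6 and 189 ± 35.8 CPM (SD, n = 3) with it. The fold changes of MCM2, MCM3 and MCM4 were -0.22, -0.053 and -0.17. CDC6 was at 128, 156, 112 and 113 CPM in untreated and 142, 120.1 and 95.8 CPM in BV6 samples, and higher with BV6 in experiment 3 only. ORC1 (-0.074) and ORC6 (-0.083), subunits of the origin recognition complex, were slightly lower in each of the 3 experiments. CDT1, the licensing factor that geminin inhibits, was at 54.9, 39.6, 25.5 and 23.5 CPM in untreated and 34.9, 11.8 and 26.8 CPM in BV6 samples. BV6 replicate 3 was lowest by far, and in experiment 4 the BV6 sample was the higher one. The log2 fold change of CDT1 was -0.55 ± 0.38 (SE; unadjusted p = 0.18, adjusted p = 0.75) with a wide interval of -1.41 to 0.31. MCM5 showed a like picture, with log2 ratios of -0.19, -0.75 and 0.014 in experiments 2, 3 and 4. With 1 sample left out, CDT1 ran from -0.90 to -0.21 and MCM5 from -0.72 to -0.11.

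Among primase and polymerase genes the median was -0.11. POLA2, the second subunit of polymerase alpha, was at 62.7, 61.8, 59.2 and 53.0 CPM in untreated and 55.1, 48.7 and 42.9 CPM in BV6 samples. It was lower with BV6 in each experiment, with log2 ratios of -0.16, -0.28 and -0.30, and the log2 fold change was -0.27 ± 0.12 (SE; unadjusted p = 0.047, adjusted p = 0.59). Of its exon bases, 16.8% are shared with another annotated gene on the same strand. POLE, the catalytic subunit of the leading-strand polymerase, was at 210.0, 189, 179 and 141 CPM in untreated and 170.1, 115 and 145 CPM in BV6 samples, with overlapping groups and a log2 fold change of -0.33 ± 0.17 (SE; unadjusted p = 0.079, adjusted p = 0.65). POLD1, the catalytic subunit of polymerase delta, had the lowest fold change of all members, -0.63 ± 0.43 (SE; unadjusted p = 0.17, adjusted p = 0.74) with a wide interval of -1.59 to 0.32. It was at 140.1, 113, 62.2 and 69.0 CPM in untreated and 79.5, 23.2 and 83.2 CPM in BV6 samples, with untreated replicate 1 highest and BV6 replicate 3 lowest. POLA1 (-0.11) and POLE2 (-0.073) differed little. The primase subunit PRIM1 was at 40.4, 47.1, 45.9 and 39.7 CPM in untreated and 49.2, 48.5 and 35.6 CPM in BV6 samples. Its log2 fold change of 0.039, the highest of the set, became -0.0035 with the block. PRIM2, the other primase subunit, was level at -0.0036.

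The sliding clamp and its loaders had the median nearest 0 of the 8 roles, at -0.084. PCNA, widely used as a proliferation marker, was at 149, 179, 138 and 127 CPM in untreated and 166, 133 and 116 CPM in BV6 samples. The groups overlapped, and the log2 fold change was -0.097 ± 0.16 (SE; unadjusted p = 0.55, adjusted p = 0.88). RFC5 was at 54.5, 61.9, 59.9 and 59.6 CPM in untreated and 55.4, 55.0 and 48.8 CPM in BV6 samples, with the lowest p of the loader genes and a log2 fold change of -0.15 ± 0.10 (SE; unadjusted p = 0.17, adjusted p = 0.74). RFC2 (-0.13), RFC4 (-0.019) and DSCC1 (-0.071), of the clamp loaders, were lower within their spread. RFC3 was at 74.2, 91.7, 77.5 and 78.0 CPM in untreated and 95.4, 80.6 and 68.2 CPM in BV6 samples. Its log2 fold change of 0.019 turned to -0.026 with the block.

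FEN1 and LIG1, which process and seal Okazaki fragments, and RPA2, which coats single-stranded DNA, had log2 fold changes of -0.16, -0.23 and -0.065. FEN1 was at 168, 206, 148 and 147 CPM in untreated and 182, 137 and 129 CPM in BV6 samples, lower in each experiment but with overlapping groups. LIG1 was at 86.0, 85.9, 67.7 and 61.8 CPM in untreated and 77.2, 49.0 and 67.1 CPM in BV6 samples, and here too the groups overlapped. With 1 sample left out, FEN1 ran from -0.32 to -0.052 and LIG1 from -0.37 to -0.058.

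The 4 genes of nucleotide supply were all below 0, with a median of -0.16. RRM2, the regulated subunit of ribonucleotide reductase, was at 247, 300.5, 230.5 and 228 CPM in untreated and 262, 215 and 184 CPM in BV6 samples. Its log2 ratios within experiments were -0.20, -0.10 and -0.31. RRM1, the larger subunit, had a log2 fold change of -0.12. TYMS, thymidylate synthase, was among the steadiest members, at 131, 147, 128 and 140.0 CPM in untreated and 133, 118 and 122 CPM in BV6 samples. The log2 fold change of TYMS was -0.13 ± 0.099 (SE; unadjusted p = 0.21, adjusted p = 0.77), and ENOSF1 on the opposite strand covers 39.9% of its exon bases. TK1, thymidine kinase, was at 157, 142, 116 and 105 CPM in untreated and 121, 58.4 and 106 CPM in BV6 samples. BV6 replicate 3 lay far below the other 6 samples, among which the groups overlapped. The TK1 log2 fold change was -0.45 ± 0.24 (SE; unadjusted p = 0.091, adjusted p = 0.67), and it ran from -0.65 to -0.19 with 1 sample left out.

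The difference of a member varied with its GC content, taken from its longest annotated transcript. The 45 genes ranged from 36.9% to 64.3% GC with a median of 47.9%, and over these genes Spearman's rho between GC content and log2 fold change was -0.75, against -0.37 over all tested genes with a known GC content. The genes share all libraries, so this is a description. Among the 15 genes with the highest GC content (52.0% to 64.3%), which include CDT1, POLD1, TK1, E2F1 and UHRF1, the median log2 fold change was -0.33. It was -0.097 in the middle 15 and -0.051 in the lowest 15. The experiments disagreed on this relation. In experiment 3 the median log2 ratio was 0.056 in the lowest, -0.087 in the middle and -0.56 in the highest 15 genes, with a rho of -0.85. In experiment 4 it was -0.23, -0.23 and -0.021, with a rho of 0.53, and in experiment 2 it was -0.12, -0.13 and -0.17, with a rho of -0.46.

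**Figure D5:**
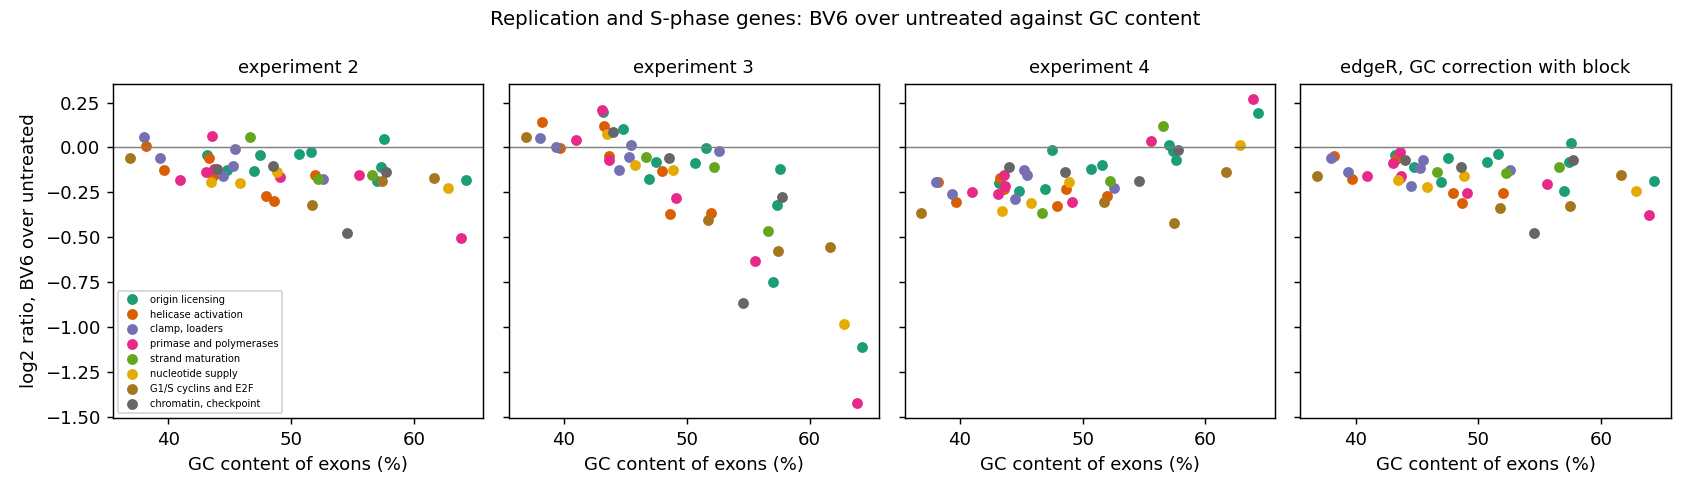
Log2 ratio of BV6 over untreated against GC content (%) for each of the 45 genes, coloured by role, in experiments 2, 3 and 4 and, on the right, the log2 fold change from the edgeR fit with GC correction and the experiment as a block. GC content is that of the longest annotated transcript, which the axis labels as exons. The points slope down steeply in experiment 3 and up in experiment 4, and after the correction 44 of 45 lie below 0.

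When a smooth GC trend was removed from each library and the experiment was kept as a block, 6 of the 45 genes (13.3%) passed the test as lower with BV6 and 0 as higher, against 3.32% and 3.25% of the 17460 genes with a known GC content. The 6 were UHRF1 at -0.48 ± 0.077 (SE; adjusted p = 0.0047), CCNE1 at -0.34 (adjusted p = 0.032), E2F2 at -0.32 (adjusted p = 0.033), GINS2 at -0.31 (adjusted p = 0.033), CDC45 at -0.25 (adjusted p = 0.039) and POLA2 at -0.26 (adjusted p = 0.041). Over the other settings tried on all samples or with 1 sample left out, the adjusted p of these 6 genes ran from 0.067 to 0.999, so the calls needed both the correction and the block. With the GC correction but no block 0 members passed, and with the block, leaving out experiment 2, 3 or 4 gave 2, 4 or 7 calls, where 1.52%, 2.35% and 6.64% of all genes were called lower, and UHRF1 alone was in all 3. At an unadjusted p below 0.05, the edgeR fit with correction and block had 18 of the 45 genes lower, against 11.1% of all genes. Leaving out experiment 2, 3 or 4 gave 12, 20 or 16 genes, against 6.86%, 9.10% and 12.4% of all genes. E2F1, whose groups did not overlap before the correction, was at -0.15 (adjusted p = 0.28) after it. The large differences of POLD1 and CDT1 shrank to -0.37 and -0.18. The member median was -0.15, with medians of -0.14, -0.13 and -0.18 from the 15 genes of lowest to the 15 of highest GC content, and 44 of 45 genes were below 0, against 51.2% of all these genes. Within experiments 2, 3 and 4 the corrected medians were -0.16, -0.072 and -0.20. The same fit called the muscle genes DES at -0.28 (adjusted p = 0.042), CHRNA1 at -0.30 (adjusted p = 0.016) and FGFR4 at -0.45 (adjusted p = 0.014) lower, as well as NCAM1 at -0.34 (adjusted p = 0.0084) and the endothelial marker PECAM1 at -0.60 (adjusted p = 0.013).

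Other genes of the pathway had medians nearer 0, though these lists and the members were chosen with earlier results of these data known. Of 41 other replication genes, 0 passed in either direction with the condition alone or with the block, 24 were below 0 and 17 above, and the median was -0.036. Of 16 other nucleotide supply genes 0 passed, with a median of -0.021, and of 24 genes of G1/S control 0 passed, with a median of 0.0053. At an unadjusted p below 0.05 with the condition alone, 3, 0 and 4 genes of these lists were lower and 0, 0 and 1 higher, and DESeq2 called CCND3 alone. With the GC correction and the block, RECQL4 (a replication helicase) at -0.37 (adjusted p = 0.041) and ASF1B (a histone chaperone) at -0.35 (adjusted p = 0.015) were lower. DTYMK, the thymidylate kinase, was lower at -0.25 (adjusted p = 0.047). In G1/S control 5 genes were lower in that fit, with E2F8 at -0.40, MYBL2 at -0.32, SKP2 at -0.33, TFDP1 at -0.23 and CCND3 at -0.57 (adjusted p = 0.0018), and 1 was higher, CDK6 at 0.28 (adjusted p = 0.021).

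Genes that bear on the entry into S phase gave no common direction. CDK4, which RH30 expresses at very high levels, was at 4875, 5338, 4488 and 4374 CPM in untreated and 5776, 4462 and 4219 CPM in BV6 samples, with a log2 fold change of 0.015. CCND1, its cyclin, was at 274, 336, 199 and 182 CPM in untreated and 292, 180.3 and 168 CPM in BV6 samples (-0.21), and MYCN had a log2 fold change of -0.41 ± 0.25 (SE; unadjusted p = 0.13, adjusted p = 0.72). The CDK inhibitor CDKN1A was at 164, 103, 137 and 167 CPM in untreated and 128, 111 and 169 CPM in BV6 samples, with overlapping groups and a log2 fold change of -0.068. CDKN1B was at 0.23. Of 7 CDK inhibitors 6 were tested, and 0 passed with the condition alone or with the block, 1 being lower at an unadjusted p below 0.05. That 1, CDKN2C, was at 50.3, 44.8, 47.4 and 46.3 CPM in untreated and 30.8, 29.3 and 36.6 CPM in BV6 samples. Its groups did not overlap, and it passed with DESeq2 and with the GC correction and block, at -0.45 (adjusted p = 0.0064) in the latter. CDKN2D passed with the GC correction and block only, at -0.40 (adjusted p = 0.044).

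NF-κB feedback genes are given as an example of genes called in the same samples. BIRC3, the gene of cIAP2, was at 1.64, 4.74, 1.26 and 2.12 CPM in untreated and at 102, 57.1 and 52.3 CPM in BV6 samples, and rose by a log2 fold change of 4.86 ± 0.45 (SE, adjusted p = 0.0034). With TRAF1, NFKBIA and NFKB2, 4 of the 5 genes rose with the condition alone, and RELB, at 0.90, passed only with the block (adjusted p = 0.032). The fold change of BIRC3 was the highest of all 23124 tested genes, while no member of the replication set had a fitted log2 fold change as large as 1. Within experiment 3 alone, the log2 ratios of POLD1 and CDT1 were -1.42 and -1.11. Called changes could be much smaller, such as CDC45 at -0.25 with the GC correction and the block.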

How the data were processed

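RNA of 7 samples of RH30 cells was analysed. Per the paper's methods, the authors sequenced stranded poly(A) libraries in paired-end mode, mapped them to GRCh38 with STAR 2.6.1d and counted them over a union model of Ensembl isoforms. The deposited table holds whole-number counts per gene, taken as not normalised from their values. The counting program, its use of strand, its treatment of reads on several genes and whether both mates were counted are not given in the sources used here, so overlapping genes are uncertain. Totals per sample were 54070030 to 77220882. They exceed the read numbers stated for these libraries, so a count may not be 1 read pair. From these counts, edgeR 4.0.16 in R 4.3.3 (filterByExpr with a minimum count of 10, TMM, glmQLFit, glmQLFTest) compared BV6 with untreated samples, with Benjamini-Hochberg adjustment over all 23124 genes and a threshold of 0.05. The design held the condition only. SEs and 95% intervals were derived from the F statistic. Exon length (union of isoforms) and GC content (longest transcript) came from GENCODE 44, of the same build. All members were matched, by symbol.

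Pairs come from a code in the sample titles, whose meaning the labels do not give. Deviations from the group means over the paired samples correlated at 0.515, 0.322 and 0.197 in experiments 2, 3 and 4. With untreated replicate 1 in the group mean, experiment 4 gave 0.0847, and over the members alone it gave -0.349, against 0.742 for untreated replicate 4 with BV6 replicate 3. Alternatives were the replicate block, DESeq2 1.42.0, RLE factors, no filter, leaving out each sample, and a GC correction (loess, span 0.5, prior count 2) with and without the block. Leaving out whole experiments, and the GC-corrected pair count, were added after seeing the data. The SEs and intervals carry the spread between samples as the fit estimated it, while the floor of 3 counts concerns counting error only.

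The members and lists were chosen with earlier results of these data known. Values per sample are given for the 3 genes with the smallest p in each direction, the highest and lowest gene per length, and 1 to 3 genes of each role, and genes of the other lists are named where a fit called them, beside CDKN1A, CDKN1B, MYCN, CDK4, CCND1 and BIRC3. Further members with per-sample values were chosen after their values were seen.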

Additional observations from a re-analysis of the deposited data

Results flagged for a closer look

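In the 4 untreated samples, 2 of the 45 genes had a sample far from the others, judged by the gap to its nearest neighbour over the whole range of the group (Dixon's test at the 95% level). POLA1, the catalytic subunit of polymerase alpha, stood at 196 CPM in untreated replicate 2, with a gap of 0.843 of the range, while the other 3 samples lay between 147 and 154 CPM. CCNE2, a cyclin E gene, stood at 32.8 CPM in untreated replicate 2, with a gap of 0.843 of the range, while the other 3 lay between 23.3 and 24.8 CPM. Chance alone flags about 1 in 20 groups, and 2 of 45 is near that rate. BV6 replicate 2, of the same experiment, was also the highest BV6 sample for both genes, at 173 CPM for POLA1 and 31.5 CPM for CCNE2.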

How the results depend on the processing

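The number of members called was 0 with the condition alone, the block, DESeq2, RLE factors, no filter, the GC correction alone and each sample left out. It was 6 with the GC correction and the replicate block, and 2, 4 and 7 when experiment 2, 3 or 4 was left out of that fit, in which 1.52%, 2.35% and 6.64% of all genes were called lower. The member median stayed below 0 under each of the 13 alternatives of the fit. Over all genes the number called was 104, and became 218 with the replicate block, 408 with DESeq2, 242 with no filter, 203 with the GC correction, 1146 with the GC correction and the replicate block, and 38 to 89 with 1 sample left out. Of the other pathway genes, DESeq2 called 2 (CCND3 and CDKN2C) and the GC correction with the block called 11. The replicate block changed no other call named here than those given above.

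Fold changes near 0 changed sign, and the cause was not tested. WDHD1 went to -0.015 with the replicate block, -0.053 with the GC correction and -0.050 with both, and ran from -0.052 to 0.083 with 1 sample left out. PRIM1 went to -0.0035, -0.021 and -0.028 in these settings and ran from -0.029 to 0.18. RFC3 went to -0.026, -0.064 and -0.062 and ran from -0.10 to 0.13. MCM7 went to 0.061 with the GC correction and 0.022 with both, and ran from -0.23 to 0.029. GINS3 ran from -0.30 to 0.095. Of 286 recomputed fold changes of 22 named members, 259 kept direction and call, 22 changed sign and 5 became calls. With 3 to 4 samples a group and the condition alone, 30 of the 45 fold changes were smaller than the SD among untreated samples. With the GC correction and the block, 18 of the 45 genes were lower at an unadjusted p below 0.05, against 11.1% of all genes.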
